A study of Mus musculus with 9 samples.

Results

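The genes described here are 40 genes of the fibroblast growth factor (FGF) pathway, chosen by gene name from the 47729 genes of the expression table: 14 genes for secreted FGF ligands, 4 for intracellular FGF homologous factors, 7 for receptors and binding proteins, the receptor adaptor Frs2, and 14 for genes that ERK signalling is known to induce or that restrain it (Sprouty, Spred, Dusp, Etv and Il17rd). RNA was sequenced from mouse embryonic stem cells (ESCs) at 0 h (untreated), 18 h and 24 h after doxycycline (dox, 1 µg/ml) was added, in 3 biological replicates per time point. All cells were of 1 engineered type and were kept in medium with LIF and serum: they carried, by cassette exchange upstream of Hprt, a dox-inducible transgene in which FLAG-tagged mouse E47 is tethered by a linker peptide to a further copy of E47, the forced E2A homodimer. E47 is a product of Tcf3, the E2A gene, and E2A proteins are basic helix-loop-helix transcription factors. No library of transgene-free cells given dox was used here, so effects of dox, of the transgene and of time in culture cannot be told apart. The protocol text of the labels speaks of 24 h and 48 h, whereas the sample titles and treatment entries give 18 h and 24 h, which are used here.

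FGF ligands bind receptor tyrosine kinases at the cell surface together with heparan sulfate, and the adaptor Frs2 passes the signal to Ras and the kinases Raf, Mek and Erk. Active ERK induces its own brakes, among them the Sprouty and Spred proteins, the dual-specificity phosphatases that remove phosphate from ERK, and the transmembrane protein Sef (Il17rd), and it induces the Etv1, Etv4 and Etv5 transcription factors, so transcripts of these genes are widely used as readouts of the pathway. In mouse ESCs, Fgf4 made by the cells themselves is the best known ligand, and FGF signalling through ERK is known for its part in the exit from self-renewal and in neural commitment.

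Each library held between 22028363 and 26471569 reads assigned to genes, and levels are FPKM, which are scaled for gene length and for reads mapped. The targeted gene Tcf3 lay between 37.7 and 41.2 FPKM at 0 h, between 107 and 116 at 18 h and between 93.6 and 108 at 24 h, so it was higher in every library given dox. The transgene is mouse E47, and its reads were not separated from those of the gene itself. The summed level of 8 pluripotency markers was 1319 to 1980 FPKM at 0 h, 1090 to 1712 at 18 h and 1025 to 1666 at 24 h, and so overlapped between the times. Dppa5a, at 460 to 1069 FPKM, was the most abundant of the 8 in every library and weighs most in this sum. Of the 8, none was called at 18 h, and at 24 h Pou5f1 was called lower (336 to 433 FPKM at 0 h and 226 to 286 at 24 h) and Nanog higher (34.5 to 45.1 and 64.1 to 78.8). The main test, described below, called 4.27% of all genes higher and 3.72% lower at 18 h, and 6.52% and 5.11% at 24 h. With a block for the replicate number, described below, 2 of the 8 were called higher (Nanog and Klf4; 10.8% of all genes) and 2 lower (Pou5f1 and Dppa5a; 10.7%) at 18 h, and 2 higher (13.6%) and 3 lower (with Utf1; 12.5%) at 24 h. Markers of cells that an ESC culture could also hold were low: the summed levels of 6 mesendoderm genes stayed between 2.03 and 3.82 FPKM, those of 6 primitive endoderm genes between 4.07 and 5.92, and those of 6 fibroblast genes between 6.0 and 14.6. Among these 3 lists 1 gene passed the main test, without the block: Thy1, which was downregulated at 24 h (5.11% of all genes). With the block, 1 mesendoderm and 1 fibroblast gene were called lower at 18 h (10.7% of all genes). At 24 h it called 1 mesendoderm gene higher (13.6%), and 1 mesendoderm and 2 fibroblast genes lower (12.5%). The summed level of 6 trophoblast genes was 7.52 to 9.46 FPKM at 0 h, 19.8 to 25.6 at 18 h and 24.1 to 30.2 at 24 h. Elf5 was at most 0.0357 FPKM in any library. Cdx2 and Hand1 were upregulated at 18 h (4.27% of all genes) and, with Tfap2c, at 24 h (6.52%). The block called 3 trophoblast genes higher at 18 h (10.8%) and 3 at 24 h (13.6%). The summed level of 8 neuroectoderm genes was 60.9 to 81.9, 73.2 to 96.6 and 71.2 to 92.3 FPKM. Most of this sum came from Nes (28.6 to 58.0 FPKM over all libraries) and Pou3f1 (25.4 to 36.0). The others were low in every library, with at most 4.72 FPKM for Sox3, 3.28 for Sox1 and 2.06 for Foxd4. Pax6 reached at most 0.422, Hes5 0.403 and Zic1 0.131. Foxd4 was upregulated at 18 h (4.27% of all genes) and, with Sox1, at 24 h (6.52%). The block called 3 neuroectoderm genes higher (10.8%) and 1 lower (10.7%) at 18 h, and 3 higher (13.6%) and none lower at 24 h. The part of these other genes in the results was not tested. In bulk RNA, a lower level in every cell cannot be told apart from fewer cells that make the transcript.

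The level of the 40 genes spanned more than 3 orders of magnitude. A mean of at least 10 FPKM over the 9 libraries was seen for 14 of them, which included 11 of the 14 feedback and Etv genes but 1 ligand, Fgf4. Another 11 lay from 1 to 10 FPKM and 10 from 0.1 to 1. The remaining 5 genes, Fgf2, Fgf7, Fgf9, Fgf12 and Fgf16, had a mean under 0.1 FPKM and no library above 0.0914 FPKM. These 5 were not tested in limma, which left 35 genes. The count models named below also took in Fgf2, Fgf7 and Fgf12, of which none was called, so that edgeR tested 38 of the 40 and DESeq2 gave an adjusted p for 36. At 0 h Etv5 was the most highly expressed, at 62.8±8.78 FPKM (mean±s.d., n=3), followed by Etv4 at 35.5±2.19, Dusp6 at 31.7±2.97, Dusp4 at 30.9±1.71 and Spry2 at 29.7±1.55. The 0 h values of Etv4, Dusp6, Dusp4 and Spry2 overlapped those of at least 1 neighbour in this order.

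**Figure D1:**
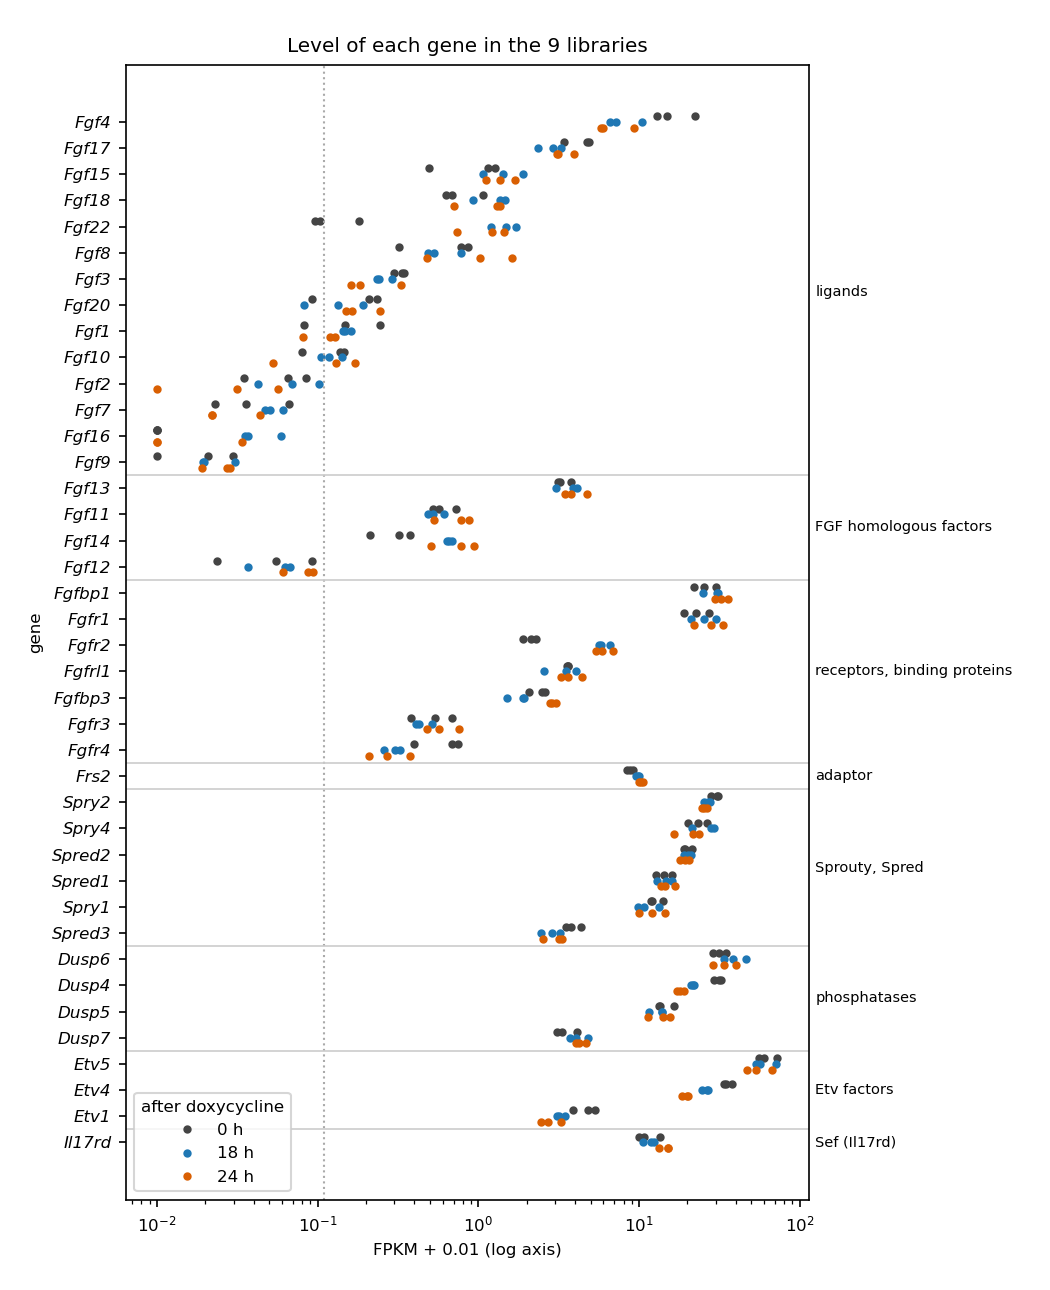
FPKM of each of the 40 genes in the 9 libraries (points, coloured by time with dox), on a log axis after adding 0.01 so that values of 0 can be drawn, grouped by role. The dotted line marks a level of 0.1 FPKM, and the ligands spread from under 0.1 to over 10 FPKM whereas most feedback and Etv genes lie above 10 FPKM.

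Between 0 h and 18 h, 3 of the 35 genes were upregulated (Fgf22, Fgfr2 and Fgf14) and 3 were downregulated (Fgf4, Dusp4 and Etv4), which means that limma gave them an adjusted p of 0.05 or less (Benjamini-Hochberg, over all 17951 genes tested). These are 8.57% of the 35 in each direction, whereas 4.27% of all genes tested were called higher and 3.72% lower. Between 0 h and 24 h, 4 were upregulated, the same 3 and Frs2, and 5 were downregulated, the same 3 with Etv1 and Spry2. These are 11.4% and 14.3% of the 35, compared with 6.52% and 5.11% of all genes. With the 2-fold minimum that the study applied, 2 genes remained upregulated at 18 h (Fgf22 and Fgfr2) and 3 at 24 h (with Fgf14), and 1 was downregulated at each time (Fgf4). Over all genes this minimum left 1.33% higher and 0.724% lower at 18 h, and 2.07% and 0.836% at 24 h. The median log2 fold-change of the 35 genes was -0.048 at 18 h and 0.053 at 24 h, beside -0.0030 and 0.0040 over all genes tested. Because replicates with the same number resembled each other, limma was also fitted with a block for the replicate number, and this called 5 genes higher and 7 lower at 18 h, with 10.8% and 10.7% of all genes called, and 7 higher and 8 lower at 24 h, with 13.6% and 12.5% of all genes called. The reads recovered from the deposited signal allowed count models as well. At 18 h edgeR called 3 genes higher and 5 lower, with 5.78% and 4.54% of all its genes called, and DESeq2 3 higher and 7 lower, with 7.95% and 7.14% of all. At 24 h edgeR called 4 higher and 5 lower (7.94% and 6.05% of all) and DESeq2 5 higher and 6 lower (10.4% and 8.77% of all). edgeR with the block called 6 higher and 8 lower at 18 h, with 13.9% and 13.1% of all genes called, and 8 and 10 at 24 h, with 16.4% and 14.9% of all.

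**Figure D2:**
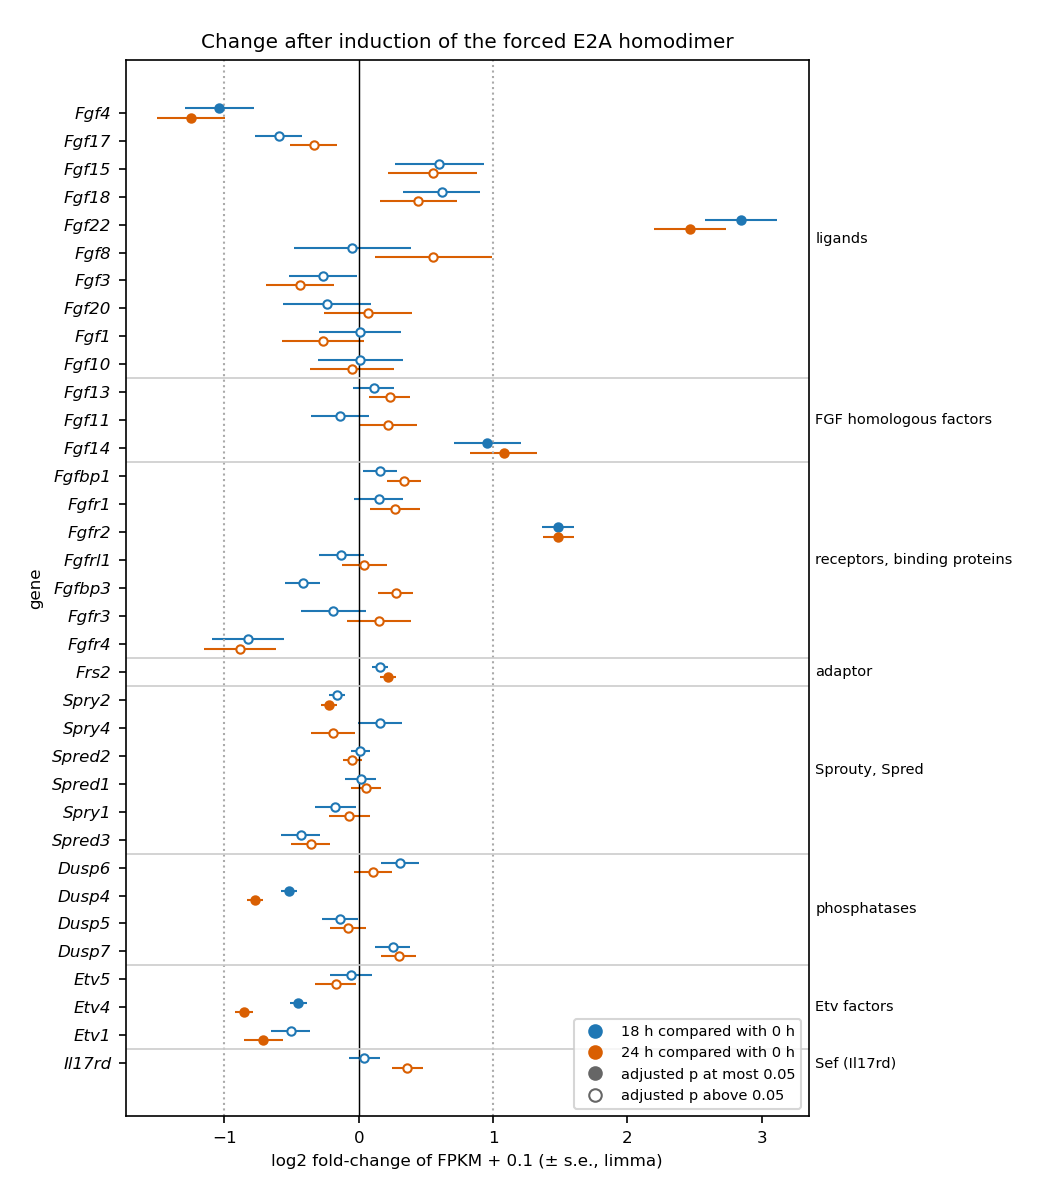
Log2 fold-change (x axis, FPKM plus 0.1) at 18 h and 24 h compared with 0 h for the 35 genes tested, with the standard error from limma over 9 libraries. Filled points passed an adjusted p of 0.05: Fgf22, Fgfr2 and Fgf14 lie to the right and Fgf4, Dusp4 and Etv4 to the left at both times, and dotted lines mark a 2-fold difference.

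The promoters of the 4 genes that limma called with a change of at least 2-fold, at 18 h or 24 h, are shown first. E2A proteins are known to bind E-boxes, written CANNTG. Fgfr4 reached 2-fold in the count models and its window is not shown. The preferred forms searched for here were CAGGTG on either strand (it reads CACCTG on the opposite one) and the palindrome CAGCTG. Each window runs from 250 bases before to 50 bases after the start given by RefSeq on GRCm38.p6, written 5′ to 3′ on the strand of the gene, with the preferred forms in capitals.
Fgfr2, chr7:130266759-130267058, minus strand: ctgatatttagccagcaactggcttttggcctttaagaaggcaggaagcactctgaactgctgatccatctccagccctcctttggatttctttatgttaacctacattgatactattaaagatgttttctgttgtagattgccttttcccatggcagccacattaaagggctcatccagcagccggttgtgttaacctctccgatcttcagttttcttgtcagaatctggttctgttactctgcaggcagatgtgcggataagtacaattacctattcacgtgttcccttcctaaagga
Fgf22, chr10:79754859-79755158, plus strand: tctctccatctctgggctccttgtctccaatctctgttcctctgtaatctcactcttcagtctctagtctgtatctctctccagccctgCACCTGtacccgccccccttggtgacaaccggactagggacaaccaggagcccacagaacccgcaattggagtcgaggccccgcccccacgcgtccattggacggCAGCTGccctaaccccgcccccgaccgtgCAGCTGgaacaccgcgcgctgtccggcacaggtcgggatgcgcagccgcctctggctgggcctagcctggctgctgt
Fgf14, chr14:124192497-124192796, minus strand: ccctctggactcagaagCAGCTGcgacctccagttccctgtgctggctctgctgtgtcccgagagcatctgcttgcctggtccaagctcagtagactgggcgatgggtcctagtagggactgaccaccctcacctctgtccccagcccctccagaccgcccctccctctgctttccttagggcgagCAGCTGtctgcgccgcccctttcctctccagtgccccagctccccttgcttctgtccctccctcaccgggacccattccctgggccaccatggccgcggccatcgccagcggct
Fgf4, chr7:144861136-144861435, plus strand: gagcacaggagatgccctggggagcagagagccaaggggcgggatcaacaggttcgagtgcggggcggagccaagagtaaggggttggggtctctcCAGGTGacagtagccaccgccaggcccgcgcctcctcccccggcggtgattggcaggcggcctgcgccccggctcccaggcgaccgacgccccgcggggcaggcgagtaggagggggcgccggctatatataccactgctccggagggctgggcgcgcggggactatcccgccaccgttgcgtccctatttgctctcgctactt

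The Fgfr2 window held neither preferred form, but it held 3 other E-boxes of the general form CANNTG. That of Fgf22 held 1 CACCTG, which began 161 bases before the start, and 2 CAGCTG, which began 56 and 27 bases before it. That of Fgf14 held 2 CAGCTG, 233 and 64 bases before the start, and that of Fgf4 held 1 CAGGTG, 154 bases before it. Of 32851 mouse promoter windows of 300 bases, 20.2% held CAGGTG on either strand, 16.3% held CAGCTG and 72.3% held CANNTG, which includes both. RefSeq windows were searched for 30 of the 40 genes, some with several starts. Windows on chromosome 18, where Spry4 and Fgf1 lie, were left out, and Dusp4 and Etv4 were also without a window. CAGGTG occurred in the windows of 5 genes, CAGCTG in those of 6 and CANNTG in those of 23. One or both preferred forms occurred in 3 of the 7 genes called at 18 h or 24 h that had a window (Fgf22, Fgf14 and Fgf4) and in 6 of the 23 others. CANNTG occurred in 6 of the 7 and in 17 of the 23. The shares over all promoters are per window and per form, whereas these counts are per gene, so they were not compared. A match describes these letters only, and binding of E2A was not measured here.

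Among the 14 ligand genes, Fgf4 was downregulated, Fgf22 was upregulated and 8 others of the 10 tested did not pass the threshold in limma without the block. Fgf4 (ENSMUSG00000050917, chromosome 7, 144847367 to 144865243 on the plus strand of GRCm38) was measured at 22.4, 13.0 and 14.9 FPKM in replicates 1, 2 and 3 at 0 h. Its values were 10.4, 7.22 and 6.55 with dox for 18 h, and 9.25, 5.94 and 5.75 with dox for 24 h. All 6 libraries given dox lay below all 3 untreated ones, and replicate 1 was the highest at every time. The mean fell from 16.8±4.98 FPKM to 8.06±2.06 at 18 h, a log2 fold-change of -1.04 with s.e. 0.255 (adjusted p = 0.0405). At 24 h the mean was 6.98±1.97 FPKM and the log2 fold-change -1.25 with s.e. 0.255 (adjusted p = 0.017). Each replicate number was lower at 18 h and at 24 h than at 0 h, and with the block the s.e. was 0.0693 and the adjusted p 0.000412 at 18 h and 0.000166 at 24 h. edgeR gave 0.0119 and 0.00341. Without the block, the calls depended on single libraries: at 18 h the adjusted p lay between 0.0563 and 0.138 without 0 h replicate 1 or 3, without 18 h replicate 2 or 3, or without 24 h replicate 2 or 3, and at 24 h it was 0.0542 without 0 h replicate 1, 0.0692 without 24 h replicate 2 and 0.0705 without 24 h replicate 3. The log2 fold-change itself lay between -1.23 and -0.81 at 18 h and between -1.47 and -1.02 at 24 h when any library was left out.

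Fgf22 (ENSMUSG00000020327, chromosome 10, 79755076 to 79758596 on the plus strand) encodes a ligand of the subfamily that also holds Fgf3, Fgf7 and Fgf10. It was barely detected before induction, with 1, 2 and 1 reads in the 3 libraries at 0 h. After 18 h of dox the libraries held 19, 18 and 14 reads, and after 24 h 9, 15 and 19. Relative to all reads on genes, the pooled reads were 12.6 times as many at 18 h as at 0 h (95% exact conditional interval 4.65 to 48.2) and 9.90 times as many at 24 h (3.60 to 38.0). These intervals cover counting error only. In FPKM the gene went from 0.117±0.0467 to 1.45±0.259 and 1.12±0.359, and every library given dox lay above every untreated library. The log2 fold-change, which is damped by the added 0.1 FPKM, was 2.85 with s.e. 0.269 at 18 h (adjusted p = 0.000776) and 2.46 with s.e. 0.269 at 24 h (adjusted p = 0.00123), and it passed the threshold in all 20 alternative fits that kept the gene. Its exons overlap those of Rnf126 on the opposite strand over 82 bases. Rnf126 was at 40.7±2.31 FPKM at 0 h and did not pass the test at 18 h (log2 fold-change 0.065, adjusted p = 0.638) or 24 h (-0.11, adjusted p = 0.39). The length behind the deposited FPKM of Fgf22 was 489 bases, whereas the exons of the GENCODE M21 annotation add up to 2247, so the level of this gene relative to others depends on the gene model.

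The other ligands with a mean of at least 1 FPKM were Fgf17, Fgf15 and Fgf18. Fgf17, which belongs with Fgf8 and Fgf18 in 1 subfamily, was at 3.38, 4.89 and 4.72 FPKM at 0 h, at 2.33, 3.23 and 2.89 at 18 h and at 3.08, 3.14 and 3.94 at 24 h. All 18 h values lay below all 0 h values, but the log2 fold-change of -0.59 missed the threshold (s.e. 0.174 and adjusted p = 0.0681), and passed it with the replicate block (adjusted p = 0.0118), in DESeq2 (-0.62, adjusted p = 0.0212) and without 0 h replicate 1 (-0.76, adjusted p = 0.0436). At 24 h Fgf17 passed in edgeR with the block alone (-0.35, adjusted p = 0.0414). Fgf15, the mouse counterpart of human FGF19 and best known as an endocrine ligand from the gut, was at 1.26, 1.14 and 0.481 FPKM at 0 h and at 1.87, 1.40 and 1.05 at 18 h. Its log2 fold-change of 0.60 passed at 18 h with the block (adjusted p = 0.0485) and not without it (adjusted p = 0.297), and at 24 h Fgf15 passed in edgeR with the block alone (0.53, adjusted p = 0.0234). Fgf18 went from 0.781±0.237 to 1.24±0.284 and 1.12±0.364 FPKM, with overlapping libraries at both times. Fgf8, a ligand of early patterning, had the largest standard error of the 35 genes (0.436), with 0.311, 0.772 and 0.852 FPKM at 0 h and 0.466, 1.02 and 1.60 at 24 h, and did not pass the test.

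The remaining ligands were near the limit of detection. Fgf3 had between 9 and 19 reads per library, Fgf20 between 3 and 10, Fgf10 between 5 and 19 and Fgf1 between 8 and 26, and none of these 4 passed at any time. Fgf2, which is commonly added to culture medium for epiblast cells, had between 0 and 15 reads, and Fgf7 between 1 and 4. Fgf9 and Fgf16 were outside the table from which reads could be recovered and did not exceed 0.0205 and 0.0488 FPKM. Fgf3, Fgf4 and Fgf15 lie next to each other on the plus strand of chromosome 7, with gaps of 2930 bases between Fgf3 and Fgf4 and 31287 bases between Fgf4 and Fgf15. Within this cluster only Fgf4 passed in limma without the block, while Fgf3 went from 0.316±0.0259 to 0.216±0.0924 FPKM at 24 h and Fgf15 from 0.962±0.421 to 1.37±0.285. Differences between the 3 genes were not tested.

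Summed over the 14 genes, ligand FPKM lay between 21.8 and 29.1 at 0 h, between 14.6 and 18.6 at 18 h and between 14.6 and 16.7 at 24 h, so the time points with dox did not overlap with 0 h. Fgf4 made up between 59.5% and 77.1% of this sum at 0 h and between 36.4% and 55.5% at 24 h. Fgf5, a ligand known as an epiblast marker, is not among the 14 and was at 6.11±2.20 FPKM at 0 h and 15.0±1.57 at 24 h, so the sums leave out a ligand that was, at 24 h, more abundant than Fgf4. With Fgf5 added, the sum over 15 genes lay between 29.4 and 32.7 FPKM at 0 h, between 29.3 and 30.01 at 18 h and between 29.9 and 31.9 at 24 h, and the time points overlapped. The lower sum with dox therefore holds for the 14 genes and not with Fgf5 included.

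Fgf14 encodes an FGF homologous factor, a group of proteins that stay in the cell and are known as partners of voltage-gated sodium channels. Fgf14 (ENSMUSG00000025551, chromosome 14, 123977907 to 124677127 on the minus strand) was upregulated from 0.201, 0.309 and 0.363 FPKM at 0 h to 0.627, 0.643 and 0.672 at 18 h, and its 24 h values were 0.499, 0.928 and 0.773. The values with dox rested on between 53 and 99 reads per library and those without on between 20 and 33, and the groups did not overlap. The log2 fold-change was 0.96 with s.e. 0.248 at 18 h (adjusted p = 0.0475) and 1.08 with s.e. 0.248 at 24 h (adjusted p = 0.0257). The 18 h call was lost in 8 of the 9 fits without 1 library, the exception being that without 24 h replicate 1, with adjusted p between 0.0578 and 0.139 in the 8, and it was kept in 7 of 20 alternatives in all. The 24 h call was lost without 0 h replicate 1 (adjusted p = 0.0816), 24 h replicate 2 (0.097) and 24 h replicate 3 (0.092). Of the related genes, Fgf13 was the most abundant, at 3.14, 3.78 and 3.19 FPKM at 0 h and 3.46, 4.76 and 3.78 at 24 h, Fgf11 went from 0.597±0.106 to 0.719±0.180, and neither passed the test. Fgf12 had between 1 and 7 reads.

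Among the receptors, Fgfr2 was upregulated, and the others did not pass the threshold in limma without the block. Fgfr1, the main receptor of ESCs, was the most abundant receptor in every library. Fgfr2 (ENSMUSG00000030849, chromosome 7, 130162451 to 133123350 on the minus strand) was at 2.27, 1.89 and 2.10 FPKM at 0 h, at 6.58, 5.64 and 5.82 at 18 h and at 6.90, 5.35 and 5.89 at 24 h. The lowest value with dox was above 2 times the highest value without it, and replicate 1 was the highest at each time. The log2 fold-change was 1.48 with s.e. 0.116 at 18 h (adjusted p = 0.000272) and 1.49 with s.e. 0.116 at 24 h (adjusted p = 0.00023), or 2.80-fold at both times, and it passed the threshold in all 21 alternative fits at each time. From 18 h to 24 h its log2 fold-change was 0.0028, with a 95% confidence interval of -0.26 to 0.27. The annotated Fgfr2 gene includes a transcript model that extends it to 2960900 bases, across 69 other genes, and 314 bases of its exons, 3.04% of their length, are shared with Ctbp2 on the same strand. Ctbp2 was at 57.9±2.45 FPKM at 0 h and did not pass the test at 18 h (log2 fold-change -0.066, adjusted p = 0.606) or at 24 h (-0.11, adjusted p = 0.358). How reads on the shared bases were counted is not given in the sources used here.

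Fgfr1 (ENSMUSG00000031565) was at 18.9, 22.7 and 27.4 FPKM at 0 h, at 21.1, 25.3 and 29.9 at 18 h and at 22.0, 28.2 and 33.2 at 24 h. Each replicate number was higher at each later time, while the spread between replicates was larger than these steps, so the time points overlapped. Its log2 fold-change was 0.15 at 18 h (s.e. 0.185 and adjusted p = 0.66) and 0.27 at 24 h (s.e. 0.185 and adjusted p = 0.378), and it passed the threshold with the replicate block at both times (adjusted p = 0.0349 and 0.0037). Fgfr3, at 0.525±0.151 FPKM at 0 h and 0.590±0.141 at 24 h, did not pass. Fgfr4 was at 0.734, 0.388 and 0.675 FPKM at 0 h, at 0.247, 0.317 and 0.292 at 18 h and at 0.367, 0.199 and 0.259 at 24 h, with all values under dox below all others. With between 18 and 62 reads per library, its log2 fold-changes of -0.83 at 18 h (s.e. 0.27 and adjusted p = 0.0956) and -0.88 at 24 h (s.e. 0.27 and adjusted p = 0.0651) missed the threshold, and the 24 h value passed with the block (adjusted p = 0.0378). On recovered reads, Fgfr4 was called lower at both times by edgeR (-1.06, adjusted p = 0.0429, and -1.13, adjusted p = 0.0273) and by DESeq2 (adjusted p = 0.0291 and 0.0147). Without 0 h replicate 2, the lowest of its group, the values in limma were -1.07 (adjusted p = 0.0418) and -1.12 (adjusted p = 0.0322).

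Fgfr1 made up between 84.3% and 89.5% of the summed FPKM of the 4 receptors at 0 h and between 74.0% and 82.8% at 24 h. Over the same times Fgfr2 went from between 6.82% and 10.1% to between 14.7% and 23.2%. The size of these shares depends on the gene models. The length behind the Fgfr1 FPKM was 8120 bases, beside 9875 in GENCODE M21. That of Fgfr2, 10328 bases, equals the length of its annotated exons, which include those shared with Ctbp2. The ratio of Fgfr2 to Fgfr1 lay between 0.0768 and 0.12 at 0 h, between 0.194 and 0.312 at 18 h and between 0.177 and 0.314 at 24 h, and so did not overlap with the untreated libraries. An exact permutation test of 3 libraries against 3 cannot give a two-sided p below 0.1, so none was made for such ratios.

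Of the 3 receptor-related genes without a kinase domain, Fgfrl1, a receptor that binds ligand but cannot phosphorylate, was at 3.61±0.0293, 3.35±0.750 and 3.74±0.572 FPKM. Fgfbp1 encodes a secreted protein that carries FGFs out of the matrix. It was at 22.1, 25.5 and 30.0 FPKM at 0 h and at 29.8, 32.3 and 35.7 at 24 h, with each replicate number higher but the groups overlapping. Its log2 fold-change was 0.16 at 18 h (s.e. 0.127 and adjusted p = 0.468) and 0.34 at 24 h (s.e. 0.127 and adjusted p = 0.117), and the latter passed with the block (adjusted p = 0.00483). Fgfbp3 was at 2.37±0.281 FPKM untreated, at 1.76±0.229 after 18 h and at 2.88±0.145 after 24 h, and no comparison passed the threshold in limma with or without the block. The adaptor Frs2 (ENSMUSG00000020170, chromosome 10, 117069427 to 117148534 on the minus strand) was upregulated by a small amount, from 8.43, 8.75 and 9.11 FPKM at 0 h to 10.3, 10.5 and 9.91 at 24 h, or by 0.22 on the log2 scale (s.e. 0.060 and adjusted p = 0.0453). All 24 h values lay above all 0 h values. The Frs2 call was lost in 8 of the 9 fits without 1 library, the exception being that without 0 h replicate 3 (adjusted p between 0.0624 and 0.144 in the 8). It was kept in 7 of 21 alternatives in all, in edgeR the adjusted p was 0.0508, and in median centring its log2 fold-change was 0.14 (adjusted p = 0.173). At 18 h it was 0.16 (s.e. 0.060 and adjusted p = 0.142).

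**Figure D3:**
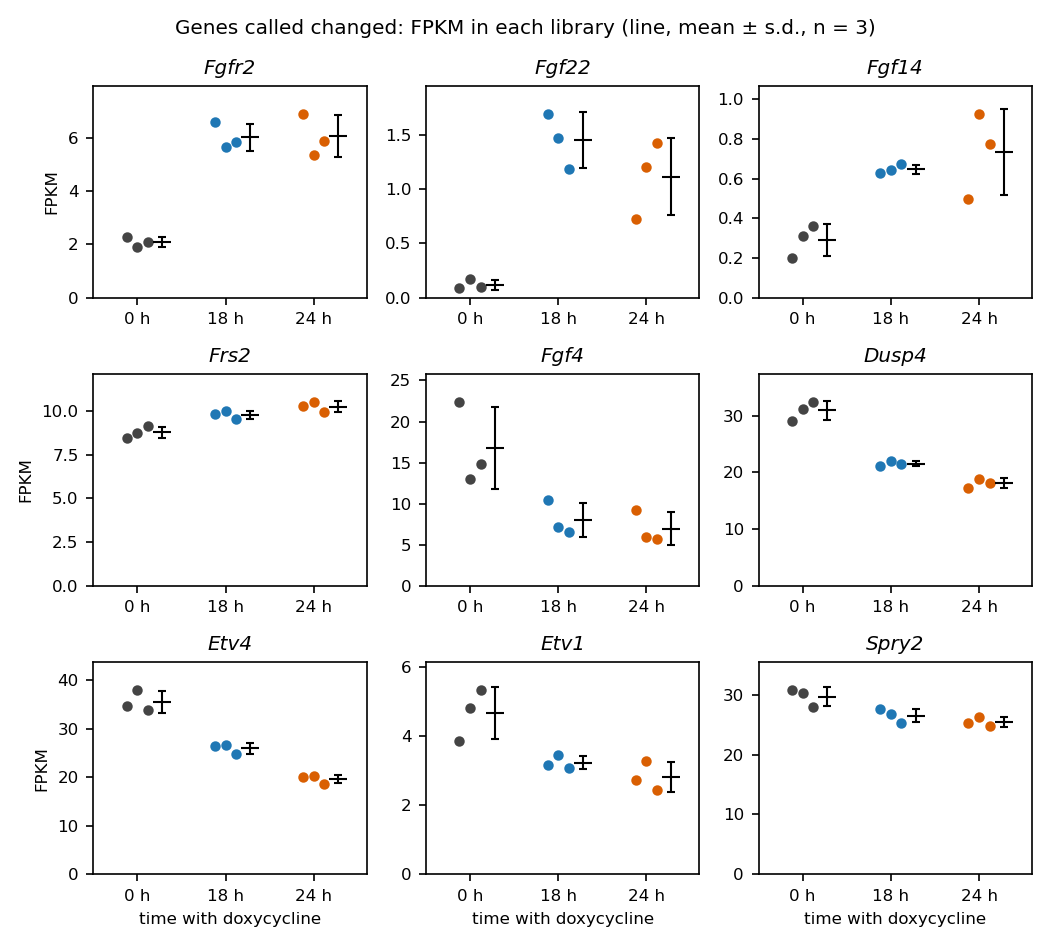
FPKM in each library (points, with replicates 1, 2 and 3 from left to right at each time) of the 9 genes called at 18 h or 24 h compared with 0 h, with mean±s.d. (n=3) beside them and axes that start at 0. In each panel, no 24 h library reaches into the range of the 0 h libraries, and the steps for Frs2 and Spry2 are small beside those for Fgfr2 and Fgf22.

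The feedback and Etv genes are the transcripts most often read as a measure of ERK activity. Of the 14, limma called 2 lower at 18 h (Dusp4 and Etv4), where 3.72% of all genes were called lower, and 4 at 24 h (with Etv1 and Spry2), where 5.11% were. In this fit none was called higher, where 4.27% of all genes were at 18 h and 6.52% at 24 h. With the block, 5 were called lower at 18 h (with Etv1, Spry2 and Spred3; 10.7% of all genes), and at 24 h 6 were called lower (with Etv5 and Spred3; 12.5% of all genes) and 1 higher (Il17rd; 13.6% of all genes). edgeR called 3 lower at 18 h (4.54% of all genes) and 3 at 24 h (6.05%), DESeq2 called 4 lower at 18 h (7.14%) and 4 at 24 h (8.77%), and both called Il17rd higher at 24 h (7.94% and 10.4% of all genes). edgeR with the block called 5 lower (13.1%) and Dusp6 higher (13.9%) at 18 h, and 7 lower (14.9%) and Il17rd higher (16.4%) at 24 h. Over the 5 fits, between 2 and 6 of the 14 were called at 18 h and between 4 and 8 at 24 h. The median log2 fold-change of the 14 was -0.096 at 18 h and -0.13 at 24 h.

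Dusp4 (ENSMUSG00000031530, chromosome 8, 34807297 to 34819894 on the plus strand), a phosphatase of nuclear ERK, was at 29.0, 31.2 and 32.4 FPKM at 0 h, at 21.1, 21.9 and 21.5 at 18 h and at 17.2, 18.9 and 18.1 at 24 h. The 3 time points did not overlap with each other, and the mean went from 30.9±1.71 to 21.5±0.442 and then 18.0±0.879. The log2 fold-change was -0.52 with s.e. 0.061 at 18 h (adjusted p = 0.00229) and -0.77 with s.e. 0.061 at 24 h (adjusted p = 0.000236). Dusp6, a phosphatase of cytoplasmic ERK and a standard FGF target, was at a like level before induction, with 31.3, 28.9 and 34.8 FPKM. It was at 38.6, 46.1 and 33.7 at 18 h and at 34.0, 39.96 and 29.0 at 24 h, which overlapped with 0 h. Its log2 fold-change was 0.31 at 18 h (s.e. 0.14, 95% confidence interval -0.0072 to 0.62, adjusted p = 0.206) and 0.11 at 24 h (s.e. 0.14, interval -0.21 to 0.42, adjusted p = 0.66). The 18 h value of Dusp6 passed in edgeR with the block (0.30, adjusted p = 0.0228). The ratio of Dusp6 to Dusp4 lay between 0.926 and 1.08 at 0 h, between 1.57 and 2.10 at 18 h and between 1.60 and 2.11 at 24 h, so it was higher in every library given dox than in any untreated one. Dusp5, another nuclear phosphatase, was at 14.4±1.81 FPKM at 0 h and 13.7±2.12 at 24 h, with log2 fold-changes of -0.14 (s.e. 0.133 and adjusted p = 0.562) and -0.079 (s.e. 0.133 and adjusted p = 0.741). Dusp7, a cytoplasmic one, lay between 3.07 and 4.10 FPKM at 0 h and between 4.05 and 4.64 at 24 h, and did not pass.

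The 3 Etv genes encode ETS transcription factors of 1 subfamily. Etv4 (ENSMUSG00000017724, chromosome 11, 101769742 to 101785371 on the minus strand) was at 34.7, 37.9 and 33.8 FPKM at 0 h, at 26.4, 26.7 and 24.7 at 18 h and at 19.9, 20.2 and 18.5 at 24 h. As for Dusp4, the time points did not overlap with each other. The log2 fold-change was -0.45 with s.e. 0.0645 at 18 h (adjusted p = 0.0053) and -0.86 with s.e. 0.0645 at 24 h (adjusted p = 0.000169). Like Fgfr2 and Dusp4, it passed the threshold in all 21 alternative fits at both times. Etv1 (ENSMUSG00000004151, chromosome 12, 38779380 to 38870484 on the plus strand) was at 3.85, 4.80 and 5.33 FPKM at 0 h and at 2.71, 3.27 and 2.43 at 24 h, with no overlap, a log2 fold-change of -0.71 (s.e. 0.144 and adjusted p = 0.0163) and, without 24 h replicate 3, of -0.62 (adjusted p = 0.0659). At 18 h the Etv1 values, between 3.07 and 3.44 FPKM, gave a log2 fold-change of -0.51 that missed the threshold (s.e. 0.144 and adjusted p = 0.0624) and passed it with the block (adjusted p = 0.0292), in edgeR (-0.53, adjusted p = 0.0282) and in DESeq2.

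Etv5, the most abundant of the Etv genes, was at 72.6, 60.1 and 55.7 FPKM at 0 h, at 71.3, 56.5 and 53.7 at 18 h and at 67.2, 53.7 and 47.1 at 24 h. Every replicate number was lower at 24 h than at 0 h by a small step, and the time points overlapped. Its log2 fold-change was -0.056 at 18 h (s.e. 0.154 and adjusted p = 0.852) and -0.17 at 24 h (s.e. 0.154, 95% confidence interval -0.52 to 0.18, adjusted p = 0.504), and the 24 h value passed with the block (adjusted p = 0.0189). The interval of Etv5 at 24 h did not reach the estimate for Etv4, -0.86. The ratio of Etv5 to Etv4 was between 1.59 and 2.10 at 0 h, between 2.12 and 2.70 at 18 h and between 2.54 and 3.38 at 24 h.

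**Figure D4:**
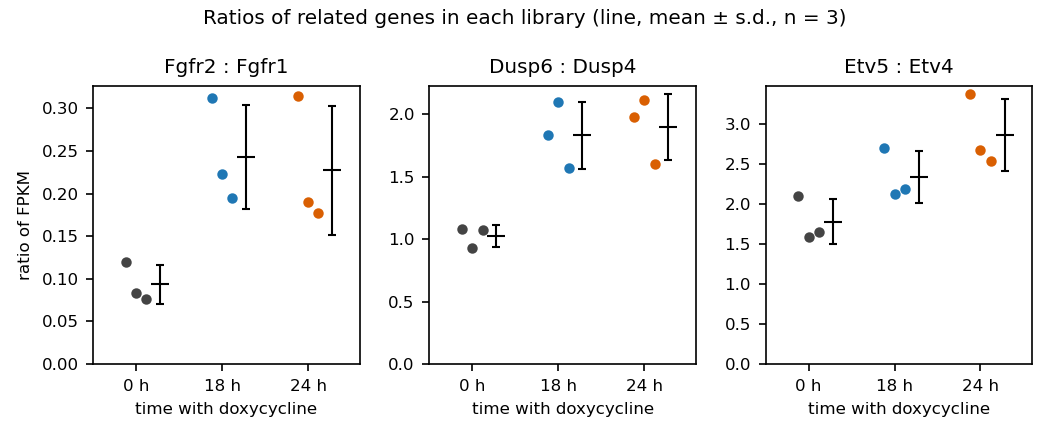
Ratio of FPKM in each library (points, with replicates 1, 2 and 3 from left to right) for Fgfr2 to Fgfr1, Dusp6 to Dusp4 and Etv5 to Etv4, with mean±s.d. (n=3) and axes that start at 0. All 6 libraries given dox lie above the 3 untreated ones in each panel, as for Dusp6 to Dusp4, which goes from at most 1.08 to at least 1.57. Each ratio holds a gene that limma had called (Fgfr2, Dusp4 or Etv4), so the panels partly restate those calls.

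Of the Sprouty and Spred genes, whose proteins block the step from receptor to Raf, Spry2 (ENSMUSG00000022114, chromosome 14, 105891947 to 105896819 on the minus strand) passed the test at 24 h. It was at 30.8, 30.4 and 27.9 FPKM at 0 h, at 27.6, 26.8 and 25.3 at 18 h and at 25.3, 26.4 and 24.8 at 24 h. The values at 24 h lay below all of those at 0 h, but the step was small, at -0.22 on the log2 scale (s.e. 0.060 and adjusted p = 0.046), and the call was lost when any library except 0 h replicate 3 was left out (adjusted p between 0.0546 and 0.145) and in edgeR (0.0522). At 18 h it was -0.16 (s.e. 0.060 and adjusted p = 0.133), which passed with the block (adjusted p = 0.0282). Spry4, another target of FGF signalling, was at 26.3, 23.3 and 20.3 FPKM untreated, at 28.1, 29.3 and 21.2 after 18 h and at 21.7, 23.5 and 16.4 after 24 h, with log2 fold-changes of 0.16 at 18 h (s.e. 0.164 and adjusted p = 0.579) and -0.19 at 24 h (s.e. 0.164, 95% confidence interval -0.56 to 0.18, adjusted p = 0.488). The 24 h value of Spry4 passed in edgeR with the block (-0.20, adjusted p = 0.0207). Spry1 was at 12.7±1.27, 11.2±1.74 and 12.2±2.33 FPKM, with log2 fold-changes of -0.17 (s.e. 0.151 and adjusted p = 0.513) and -0.069 (s.e. 0.151 and adjusted p = 0.804).

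Spred1 and Spred2 had the log2 fold-changes nearest to 0 of the 14 feedback and Etv genes at both times. Spred1 was at 12.8, 16.1 and 14.4 FPKM at 0 h, at 13.0, 15.9 and 14.8 at 18 h and at 13.7, 16.8 and 14.4 at 24 h, with log2 fold-changes of 0.014 (s.e. 0.114 and adjusted p = 0.962) and 0.053 (s.e. 0.114 and adjusted p = 0.801). Spred2 lay between 19.1 and 21.3 FPKM at 0 h, between 19.0 and 21.1 at 18 h and between 17.9 and 20.4 at 24 h, with log2 fold-changes of 0.012 (s.e. 0.0713 and adjusted p = 0.941) and -0.047 (s.e. 0.0713 and adjusted p = 0.705), and its 95% confidence interval at 24 h, -0.21 to 0.11, was the narrowest among those of the feedback genes that were not called. Spred3 was the least abundant of the 3. It was at 3.49, 3.77 and 4.34 FPKM at 0 h, at 2.43, 3.23 and 2.88 at 18 h and at 2.52, 3.18 and 3.32 at 24 h. All 6 values with dox lay below those at 0 h, while the 18 h and 24 h values overlapped. Its log2 fold-changes of -0.43 (s.e. 0.145 and adjusted p = 0.103) and -0.36 (s.e. 0.145 and adjusted p = 0.145) passed with the block (adjusted p = 0.0149 and 0.0241), and that at 18 h also passed in DESeq2 (-0.44, adjusted p = 0.0229).

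Il17rd (Sef), which holds ERK in the cytoplasm, was at 9.93, 10.7 and 13.4 FPKM at 0 h, at 10.6, 12.4 and 11.9 at 18 h and at 13.3, 15.2 and 15.1 at 24 h. Replicate 3 at 0 h lay just above the lowest 24 h library. The log2 fold-change was 0.041 at 18 h (s.e. 0.115 and adjusted p = 0.857) and 0.36 at 24 h (s.e. 0.115 and adjusted p = 0.0736), and the 24 h value passed with the block (adjusted p = 0.0143), in edgeR (0.35, adjusted p = 0.0449), in DESeq2 (0.34, adjusted p = 0.0249) and without 0 h replicate 3 (0.49, adjusted p = 0.0213).

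Between 18 h and 24 h none of the 35 genes passed in limma, and 4 had an unadjusted p under 0.05 (Etv4, Dusp4, Il17rd and Fgfbp3). Over all genes 0.0223% were called in this comparison, in either direction. edgeR called none of these genes, DESeq2 called 1, Etv4, with 0.295% of all genes called, and the limma fit with the block called 1, also Etv4 (log2 fold-change -0.41, adjusted p = 0.0481, beside 0.192 without the block), with 0.0446% of all genes called. edgeR with the block called 5 (Etv4, Dusp4, Il17rd, Fgfbp3 and Spry4), with 1.11% of all genes called. The other log2 fold-changes were -0.25 for Dusp4 (adjusted p = 0.593), 0.32 for Il17rd (adjusted p = 0.857) and 0.69 for Fgfbp3 (adjusted p = 0.29). Over the 35 genes the log2 fold-change from 18 h to 24 h lay between -0.41 and 0.69, and the comparisons with 0 h share the untreated libraries, so that the 18 h and 24 h values are not independent of each other.

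The genes around the pathway were read from 3 lists of non-members, whose counts from limma without the block stand beside 4.27% of all genes called higher and 3.72% lower at 18 h, and 6.52% and 5.11% at 24 h. With the block these shares were 10.8% and 10.7%, and 13.6% and 12.5%. In edgeR they were 5.78% and 4.54%, and 7.94% and 6.05%, and in DESeq2 7.95% and 7.14%, and 10.4% and 8.77%. In edgeR with the block they were 13.9% and 13.1%, and 16.4% and 14.9%. Of 19 genes of the Ras-ERK cascade, 1 was downregulated at 18 h (Grb2), none at 24 h, and none was upregulated, with a median log2 fold-change of 0.044 at 18 h and -0.031 at 24 h. At 24 h, 3 of the 19 had an unadjusted p under 0.05 in limma, and 3 were called by limma with the block (Rps6ka3 higher, Grb2 and Shc1 lower), none by edgeR and 2 by DESeq2. At 18 h the block, edgeR and DESeq2 each called 2 lower, Grb2 and Mapk3. The fit by edgeR with the block called 3 of the 19 higher and 2 lower at 18 h, and 2 higher and 4 lower at 24 h. Grb2, the adaptor that links receptors to Ras activation, fell from 48.0±1.89 FPKM to 41.1±0.915 at 18 h, or by 0.22 on the log2 scale (s.e. 0.0513 and adjusted p = 0.0315). Its call was lost without 0 h replicate 2 or 3, without any replicate at 18 h and without 24 h replicate 3 (adjusted p between 0.0501 and 0.116). At 24 h its log2 fold-change was -0.16 (adjusted p = 0.0735), which passed with the block (adjusted p = 0.0277). Of 21 tested genes for FGF co-receptors and heparan sulfate, 2 were upregulated (Hs6st1 and Sdc4) and 1 downregulated (Gpc3) at 18 h, and 4 were upregulated (Hs6st1, Sdc4, Gpc1 and Sdc2) and none downregulated at 24 h, with medians of 0.16 and 0.18. With the block, 6 were higher at 18 h (with Gpc1, Sdc1, Sdc2 and Sdc3) and 2 lower (Gpc3 and Gpc4), and 5 were higher at 24 h (with Sdc3) and the same 2 lower. edgeR and DESeq2 each called 4 higher and 1 lower at 18 h, and 4 and 5 higher and none lower at 24 h. In edgeR with the block, 6 were higher and 2 lower at 18 h, and 7 were higher and 2 lower at 24 h. Without the block, calls were lost without single libraries for Gpc3 (any except 0 h replicate 2, adjusted p between 0.0586 and 0.146), for Gpc1 (0 h replicate 1, 0.0545, or 24 h replicate 3, 0.069) and for Sdc2 (0 h replicate 1 or 2, 18 h replicate 2 or 3, or 24 h replicate 2 or 3, between 0.0526 and 0.131). Sdc4, a heparan sulfate proteoglycan of the cell surface, rose from 29.4±2.87 FPKM to 67.6±8.10 and 58.6±7.27, with log2 fold-changes of 1.20 (adjusted p = 0.000777) and 0.99 (adjusted p = 0.00144), each with s.e. 0.113.

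Of 10 immediate early genes that respond to ERK, 2 were downregulated at 18 h (Egr1 and Myc), 5 at 24 h (Egr1, Fos, Fosl1, Junb and Myc) and none was upregulated, with medians of -0.27 and -0.48. With the block, 5 were lower at 18 h (with Fos, Ier2 and Junb) and 1 higher (Srf), and 7 were lower at 24 h (with Ier2 and Phlda1). At 18 h edgeR called 3 lower and DESeq2 4, and at 24 h each called the same 7 lower as the block. In edgeR with the block, 6 were lower and 1 higher at 18 h, and 8 were lower and none higher at 24 h. Their summed level was 174 to 187 FPKM at 0 h, 152 to 155 at 18 h and 128 to 140 at 24 h, with no overlap. Egr1, a zinc finger factor induced within minutes of ERK activation, fell from 11.1±2.87 FPKM to 4.69±0.506 after 24 h, for a log2 fold-change of -1.21 with s.e. 0.183 (adjusted p = 0.00513). Fos fell from 3.41±0.241 to 1.55±0.682 FPKM after 24 h, for a log2 fold-change of -1.18 and s.e. 0.285 (adjusted p = 0.0301). Without single libraries, calls were lost for Egr1 at 18 h (any replicate at 18 h, adjusted p between 0.0558 and 0.0704), for Myc at 18 h (0 h replicate 1, 0.0549, or 18 h replicate 3, 0.0518), for Fos at 24 h (any replicate at 0 h, 18 h replicate 2 or 24 h replicate 2, between 0.0507 and 0.0858) and for Fosl1 at 24 h (0 h replicate 1, 24 h replicate 1 or 24 h replicate 3, between 0.0515 and 0.0627). These genes also respond to other signals, and ERK phosphorylation was not measured in these libraries.

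**Figure D5:**
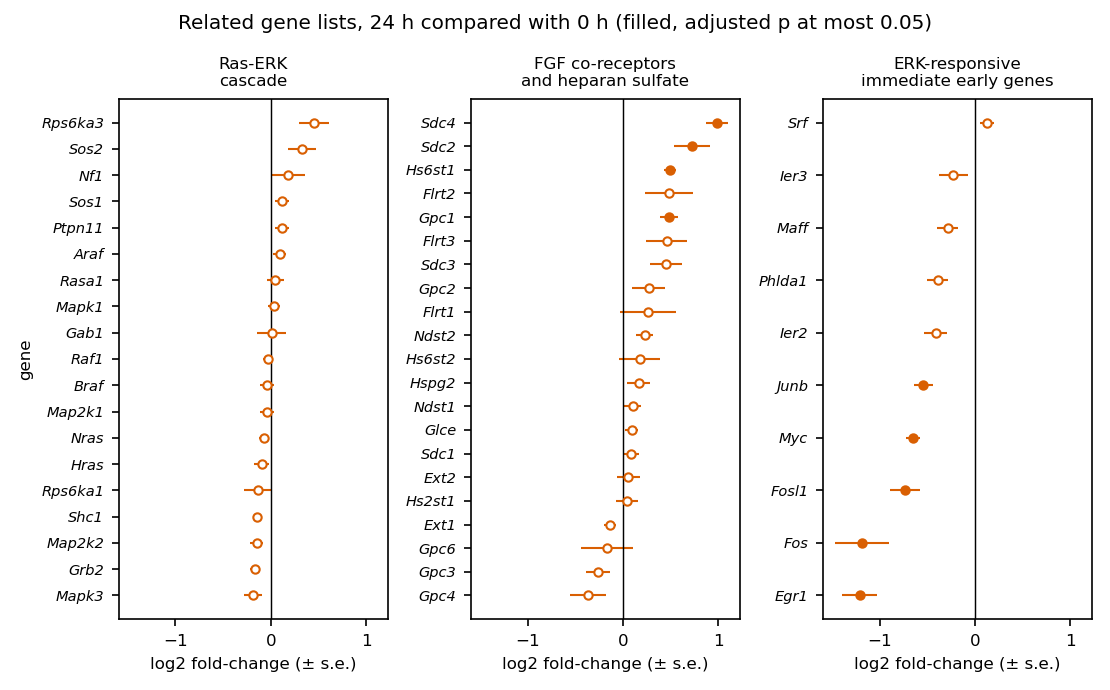
Log2 fold-change (x axis, FPKM plus 0.1) with s.e. at 24 h compared with 0 h for 19 genes of the Ras-ERK cascade, 21 of FGF co-receptors and heparan sulfate and 10 ERK-responsive immediate early genes. Filled points passed an adjusted p of 0.05: none on the left, Sdc4, Sdc2, Hs6st1 and Gpc1 in the middle, and Junb, Myc, Fosl1, Fos and Egr1 on the right.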

How the data were processed

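Strand-specific libraries were made from poly(A) RNA (TruSeq Stranded mRNA) and sequenced on a HiSeq4000, and the authors aligned the reads to GRCm38 with STAR. Per the submitters' processing notes, cutadapt 1.9 and edgeR 3.16.5 were used. The annotation release and the counting rules are not given in the sources used here. The authors deposited FPKM values for 47729 genes and, for 19210 genes, a signal that is CPM scaled to an effective library size. The log2 fold-changes and p-values of comparisons made by the authors, deposited beside them, were not used. Dividing the deposited signal by the worth of 1 read gave whole reads, to within 0.1 of a read, for all 19210 genes in each library. Replicates differed by more than sampling noise.

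The main test was limma 3.58.1 (lmFit, then eBayes with trend=TRUE) under R 4.3.3, on log2(FPKM+0.1) of all 9 libraries and the 17951 genes with a mean of at least 0.1 FPKM. Adjusted p values are Benjamini-Hochberg over all of these and come from limma unless another tool is named. Adding 0.1 damps the fold-changes of low genes. The fit was first tested on simulated data. The study used edgeR, but counts were not among the tables, so edgeR 4.0.16 and DESeq2 1.42.0 were run on the recovered reads as alternatives. Other alternatives changed the pseudocount, the filter, the scaling, the variance model or the libraries. The replicate numbers of the labels pair the libraries. Over 11893 genes, deviations from the time point mean correlated between 0.211 and 0.548 in each of the 9 pairs with the same number. The other 18 pairs lay between -0.40 and 0.11. Their mean of -0.16 is no separate evidence, because deviations from a mean cancel within each time point. Values with the replicate number as a block stand beside a gene described in full, and counts beside a pathway list, where the block changes the call.

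Full statistics are given for genes called changed and for those with a mean of at least 5 FPKM, for Fgf15, Fgf17, Fgfr4 and Spred3, which another fit called, and for Grb2, Sdc4, Egr1 and Fos of the 3 surrounding lists, of which 1 gene is not reported here. The genes and lists were chosen with earlier results of these data known. Coordinates and exons are from GENCODE M21 (GRCm38) and promoters from RefSeq (GRCm38.p6). For 29 of 38 genes the length behind the deposited FPKM was within 1% of the exon length in GENCODE M21 after a common scale. The 9 that differed were Fgf1, Fgf12, Fgf22, Fgfr1, Frs2, Dusp6, Spry4, Etv1 and Il17rd. Their levels relative to other genes depend on the gene model. Python 3.11.15, pandas 2.3.3, scipy 1.17.1 and matplotlib 3.10.9 served for tables and plots.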

Additional observations from a re-analysis of the deposited data

How the results depend on the processing

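Fgfr2, Dusp4 and Etv4 were called at 18 h and 24 h in all 21 alternatives, and Fgf22 in the 20 that kept it, whereas Fgf4 was called in 12 of 21 at 18 h and 18 of 21 at 24 h, Fgf14 in 7 of 20 and 15 of 20, and, at 24 h, Frs2 in 7 and Spry2 in 8 of 21. Over 49 gene comparisons, 895 of 1023 alternative values kept direction and call. At 18 h the 3 genes called higher became 1 with a minimum of 1 FPKM, 5 with the replicate block and 6 with edgeR on recovered reads and the block, and the 3 called lower became 7 with the block, 5 with edgeR, 7 with DESeq2, 8 with edgeR and the block and 1 with a 2-fold minimum. At 24 h the 4 called higher became 2 without a filter, with a minimum of 1 FPKM, with the compared time points alone or at an adjusted p of 0.01, 7 with the block and 8 with edgeR and the block. The 5 called lower became 3 with the compared time points alone, 8 with the block, 10 with edgeR and the block, 1 with a 2-fold minimum and 2 at an adjusted p of 0.01. Between 24 h and 18 h, edgeR with the block called 2 higher and 3 lower, and the block alone and DESeq2 1 lower each. Leaving out 1 library gave between 2 and 5 higher and between 2 and 5 lower at 24 h. The cause of these differences was not tested. In limma the block changed no call of the 35 genes beyond those given beside the genes.

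Sign changes occurred among genes that were not called. Median centring gave -0.023 for Spred1 and -0.025 for Spred2 at 18 h and -0.024 for Spred1 at 24 h, and quantile normalization gave 0.0086 for Etv5 at 18 h. Without single libraries, log2 fold-changes at 18 h ranged from -0.071 to 0.097 for Spred1, from -0.024 to 0.061 for Spred2, from -0.18 to 0.053 for Etv5 and from -0.050 to 0.17 for Il17rd. At 24 h they ranged from -0.21 to 0.067 for Spry1, from -0.033 to 0.14 for Spred1, from -0.090 to 0.0017 for Spred2, from -0.18 to 0.048 for Dusp5 and from -0.0098 to 0.22 for Dusp6. No scaling moved the median of all genes by more than 0.1. Fgf1, Fgf3, Fgf8, Fgf10 and Fgf20 had under 100 reads in every library, and the widest of their 95% confidence intervals at 24 h was -0.43 to 1.54 (Fgf8). The part of depth in these widths was not tested.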
